A study of Mus musculus with 6 samples.

Results

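The genes described here encode the nuclear pore complex and the soluble factors that carry proteins and RNA through it, measured in N2A cells with and without knockdown of the long non-coding RNA Dali. They comprised 54 of the 19938 genes that the array annotation paired with a symbol of their own, 27 nucleoporins, 23 transport carriers and 4 genes of the Ran cycle. Members were chosen by gene symbol, and where a gene had several probe sets the 1 used was selected on the highest mean over the 6 arrays. Neither step used the knockdown contrast, although the gene group itself was proposed with earlier results of these data known.

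The arrays compared 2 groups of 3 samples of N2A, a mouse neuroblastoma line, to ask which transcripts respond to depletion of Dali, a non-coding RNA transcribed beside the gene of the neural transcription factor Pou3f3. Both groups were transfected transiently with 1.5 ug of a plasmid using FuGENE 6, the control group with a non-targeting vector and the knockdown group with a single shRNA construct against Dali. RNA was collected after 2.5 days, and 200 ng was labelled for Affymetrix Mouse Gene 1.0 ST arrays. The submitters call the samples biological replicates but do not say how the cultures were kept apart, and p-values therefore cover the spread between these samples only. All values are log2 intensities that the authors normalised by RMA, and every difference is knockdown minus control on that log2 scale.

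The nuclear pore is a ring-shaped channel through the nuclear envelope, built from scaffold, membrane and channel nucleoporins, many of which carry phenylalanine-glycine (FG) repeats that carriers bind. Importins release their cargo in the nucleus on meeting Ran bound to GTP, whereas exportins need Ran-GTP to hold theirs. The exchange factor Rcc1 on chromatin and the activating protein Rangap1 in the cytoplasm keep Ran-GTP high inside the nucleus. Dividing cells assemble new pores for each daughter nucleus, and importin alpha family members are known to be exchanged for one another during neural differentiation.

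The arrays had near-equal medians over annotated probe sets, from 8.34 to 8.40. Of 12 neuroblastoma and sympathetic markers 10 were measured, with control means from 9.16 for Th to 13.5 for Stmn2. The measured markers of fibroblasts (6 of 6), immune cells (5 of 5), hepatocytes (4 of 4), muscle (4 of 4) and astrocytes (4 of 4) had control means between 5.02 and 8.70, and 0 markers of any list were called. Dali itself was not analysed here. Arrays sharing replicate number 2 or 3 tended to lie off their group means in the same direction (correlations 0.646 and 0.655). For number 1 this was weak (0.141), and control 1 correlated more with knockdown 2 (0.202). Replicate 2 was the lowest array for most members in either group. Of the 54 members, 36 had their lowest control value in replicate 2, 32 their lowest knockdown value there, and 28 both.

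Most genes of the pore lay somewhat higher after Dali knockdown, mostly by less than the fold needed for a call. Ndc1, Nup133, Pom121 and Nup107 passed that fold, but their limma adjusted p did not pass. The mean was higher in knockdown for 24 of 27 nucleoporins, 17 of 23 carriers and 4 of 4 Ran cycle genes. The median difference was 0.23 for nucleoporins, 0.13 for carriers and 0.24 for Ran cycle genes, beside 0.02 over all 19938 genes and -0.00 over the 9928 genes whose mean lay above the array median, as that of 52 of the 54 members did. In RNA from whole cultures, a larger share of cells in a given state and more RNA per cell cannot be told apart.

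A probe set was called at a limma adjusted p under 0.1 and a fold of at least 1.3. By limma 0 of the 54 members were called, where 0.367% of tested probe sets were called higher and 0.769% lower. Of the members, 28 had been kept by the filter on variance that the study's methods name (15 nucleoporins, 10 carriers and 3 Ran cycle genes), and the other 26 could not be called. The SE and intervals given for those 26 are from a fit without the filter. Their widths do not compare directly with those of the 28. Without that filter limma called 0 of 54 as well. At an unadjusted limma p under 0.05 there were then 20 of 54 members, 18 of them higher, beside 10.7% of all probe sets.

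The study's methods state no pairing of arrays. With the replicate block, which compares each knockdown array with the control array of the same number, 7 members were called. Higher were Ndc1, Nup133, Pom121, Nup107, Ipo11 and Xpo4, and lower was Kpna6. In that fit 2.77% of tested probe sets were called higher and 4.89% lower. Of the 28 members tested, 6 were called higher, a larger share, and 1 lower, too few to compare. The same 7 genes passed with the block when the variance filter was omitted. Without the fold threshold the block called 18 of the 28 tested members higher and 2 lower, beside 9.34% and 12.8% of tested probe sets. Higher were 13 nucleoporins, 3 carriers and 2 Ran cycle genes, and lower were 2 carriers.

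**Figure D1:**
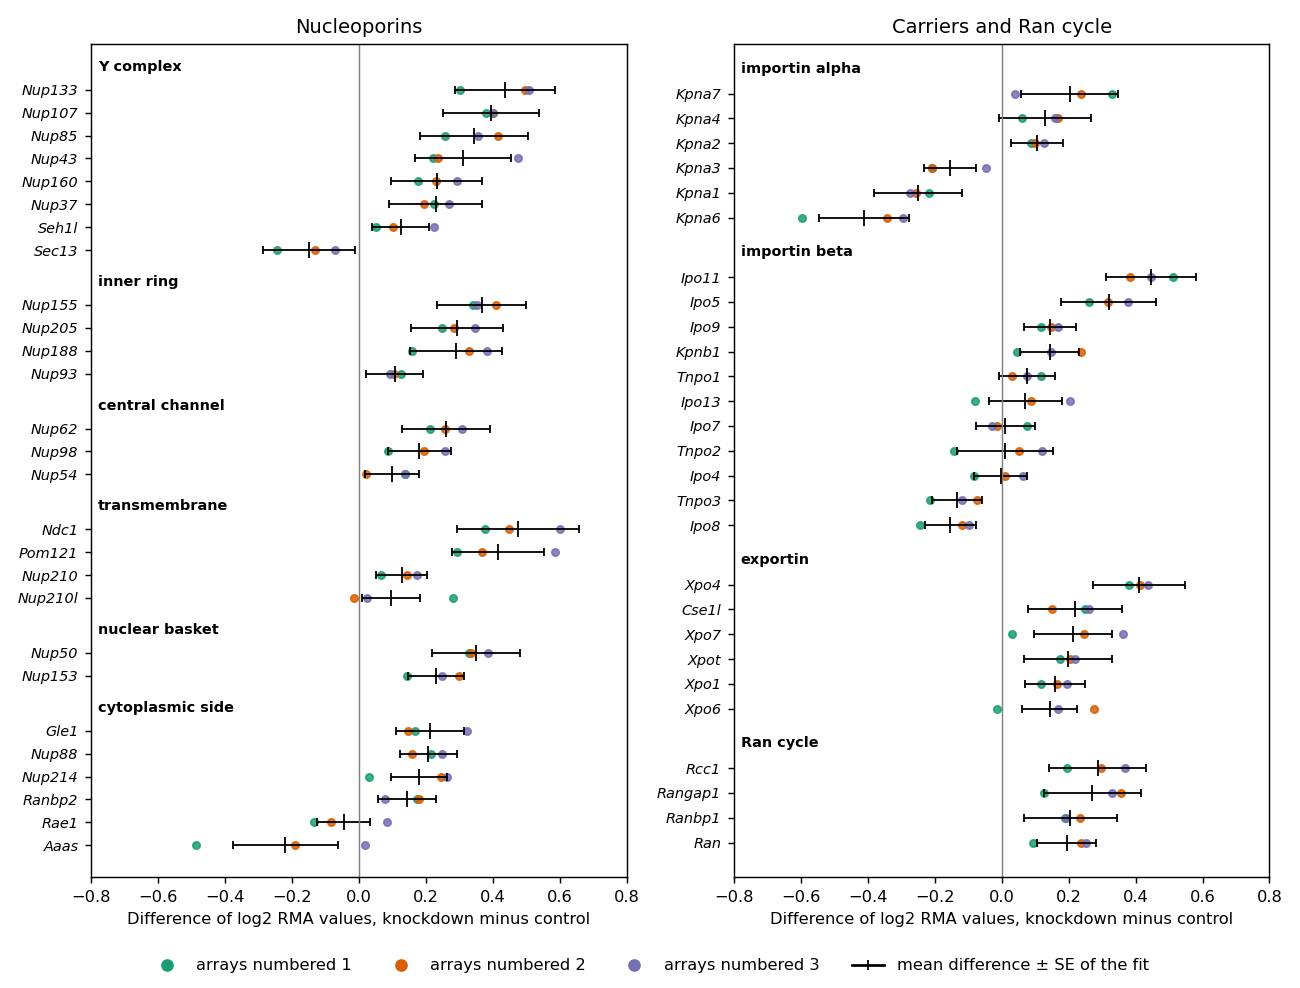
Differences of log2 RMA values, knockdown minus control, for each of the 54 genes, grouped by role. Coloured points are the 3 pairs of arrays that share a replicate number and black bars the mean difference ± SE of the limma fit. For genes that the variance filter removed, the SE is from the fit without it. Nucleoporin means run from -0.22 for Aaas to 0.47 for Ndc1, and carrier means from -0.41 for Kpna6 to 0.45 for Ipo11.

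The plot of differences by role shows how regular this was across pairs. In 40 of 54 members the knockdown array was the higher in all 3 pairs, and in 6 it was the lower in all 3. Over all 19938 genes this held for 4279 and 3971, and over the 9928 above the array median for 2819 and 3040. The median over the 54 was 0.13, 0.19 and 0.22 in pairs 1, 2 and 3, beside 0.05, -0.00 and -0.02 over all genes. All 3 knockdown arrays lay above all 3 control arrays for 22 of 54 members, where this held for 8.47% of all genes and 12.2% of the genes above the array median. They lay below for 5 of 54, all of them carriers, where this held for 7.11% and 11.4%.

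Promoter sequences of 4 of the 7 genes called with the block are shown so that the letters before their start sites can be read beside their values. Each is the 250 bases upstream of the start in RefSeq, build GRCm38.p6, written 5′ to 3′ on the gene's strand. Capitals mark matches, on either strand, to motifs known from promoters of cell cycle and growth genes. The motifs searched were TTTGAA (the cell cycle homology region, CHR), CCAAT (the CCAAT box), GCGCANGC (NRF1) and TTTCCCGC or TTTGGCGC (E2F).
Ndc1 (chr4:107367797-107368046, plus strand): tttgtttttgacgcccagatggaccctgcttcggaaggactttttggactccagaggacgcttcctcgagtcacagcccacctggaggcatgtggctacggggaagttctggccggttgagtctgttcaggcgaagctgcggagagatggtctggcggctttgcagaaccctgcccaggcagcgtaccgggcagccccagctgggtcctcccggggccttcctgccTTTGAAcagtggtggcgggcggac
Pom121 (chr5:135394547-135394796, minus strand): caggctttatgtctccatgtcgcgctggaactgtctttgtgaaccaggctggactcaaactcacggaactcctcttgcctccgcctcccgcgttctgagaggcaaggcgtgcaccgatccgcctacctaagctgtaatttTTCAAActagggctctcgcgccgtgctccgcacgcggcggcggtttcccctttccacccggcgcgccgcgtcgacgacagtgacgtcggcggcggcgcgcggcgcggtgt
Nup107 (chr10:117792706-117792955, minus strand): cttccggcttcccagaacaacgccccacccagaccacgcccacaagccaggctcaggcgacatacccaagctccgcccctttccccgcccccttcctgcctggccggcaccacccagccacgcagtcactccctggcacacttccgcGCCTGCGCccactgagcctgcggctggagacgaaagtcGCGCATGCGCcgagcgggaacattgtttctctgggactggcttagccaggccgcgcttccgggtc
Ipo11 (chr13:106936959-106937208, minus strand): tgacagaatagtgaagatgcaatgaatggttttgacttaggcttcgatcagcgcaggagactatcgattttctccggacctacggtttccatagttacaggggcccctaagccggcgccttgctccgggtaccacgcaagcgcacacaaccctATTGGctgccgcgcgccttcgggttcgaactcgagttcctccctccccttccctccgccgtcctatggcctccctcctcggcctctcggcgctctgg

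Ndc1 held the CHR letters 24 bases before the start, and Pom121 held them as the reverse complement TTCAAA 110 bases before it. Nup107 held 3 NRF1 matches, of which a pair overlap in the run nearest the start. Ipo11 held CCAAT as its reverse complement 97 bases before the start. Nup133 also had a promoter window, which held none of these motifs and is not shown. Xpo4 and Kpna6 were not matched in the promoter table.

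Of the 54 members, 44 were matched to 51 promoter windows of 300 bases (250 before the start and 50 after it). NRF1 letters were in the windows of 25.0% of the 44 genes (11) against 14.8% of protein-coding genes, and CHR letters in 29.5% (13) against 18.5%. The CCAAT box was in 45.5% (20) against 42.3%, and E2F letters in 4.55% (2 genes, Ranbp1 and Nup210) against 2.31%. Within the members, NRF1 letters were in 26.1% of 23 nucleoporins, 11.8% of 17 carriers and 3 of 4 Ran cycle genes, whereas CCAAT was in 34.8% of nucleoporins and 64.7% of carriers. The protein-coding genes were taken whatever their level in these cells, whereas 52 of the 54 members lay above the array median. The 2 sets are therefore not matched for level. These are counts of letters and were not tested.

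The Y complex is the outer scaffold ring of the pore, and 7 of its 8 measured subunits had a higher mean in knockdown (median 0.27). Nup133, which forms the end of the stalk of the Y, read 10.72, 10.30 and 10.59 in control replicates 1, 2 and 3 and 11.03, 10.79 and 11.10 in the knockdown replicates. The lowest knockdown array lay above the highest control array, and replicate 2 was the lowest of both groups. The mean difference was 0.44 (SE 0.15, n = 3 per group, 1.35-fold, limma adjusted p = 0.213, with the replicate block 0.0188).

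Nup107, its partner in the stalk, read 10.59, 10.30 and 10.58 in control and 10.97, 10.70 and 10.99 in knockdown arrays. The groups did not overlap, and the 3 within-pair differences were close to one another. The mean difference was 0.39 (SE 0.14, 1.31-fold, limma adjusted p = 0.247, with the block 0.0195).

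The other Y complex genes lay under the fold threshold. Nup85 differed by 0.34, Nup43 by 0.31, Nup160 by 0.23, Nup37 by 0.23 and Seh1l by 0.13. Sec13, which is also a coat protein of vesicles leaving the endoplasmic reticulum, was the exception in sign. It read 11.27, 11.19 and 11.35 in control and 11.03, 11.06 and 11.28 in knockdown arrays, so that the groups overlapped through knockdown replicate 3. The difference was -0.15 with a 95% interval from -0.44 to 0.14 (limma adjusted p = 0.731).

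The inner ring joins the scaffold to the membrane and the channel, and its 4 measured genes were all higher (median 0.29). Nup155, which contacts the membrane, read 11.11, 10.92 and 11.06 in control and 11.45, 11.34 and 11.41 in knockdown arrays, without overlap. Its difference of 0.37 (SE 0.13, 1.29-fold) lay just under the fold threshold, with an adjusted p of 0.243 by limma and 0.0251 with the block. Nup205 differed by 0.29 and Nup188 by 0.29, again with every knockdown array above every control array. Nup93, to which both of these bind, had the smallest difference of the ring. Its values were 12.44, 12.30 and 12.44 in control and 12.57, 12.41 and 12.53 in knockdown arrays, which overlapped (difference 0.11, 95% interval -0.09 to 0.30). Nup35 was not analysed here.

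The transmembrane nucleoporins anchor the pore in the envelope. Ndc1, which spans the membrane and also sits at spindle poles in yeast, had the largest difference of the 54 genes. Its values were 9.87, 9.59 and 10.15 in control and 10.25, 10.04 and 10.75 in knockdown arrays. Knockdown replicate 2 lay below control replicate 3, so the groups overlapped although each knockdown array was above its own pair. The difference was 0.47 (SE 0.18, 1.39-fold, limma adjusted p = 0.273, with the block 0.0152).

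Pom121, which takes part in inserting new pores into the intact envelope, read 10.47, 10.50 and 10.49 in control and 10.76, 10.87 and 11.08 in knockdown arrays. The control arrays lay close together (SD 0.02) and all knockdown arrays lay above them. The difference was 0.42 (SE 0.14, 1.33-fold, limma adjusted p = 0.192, with the block 0.0262). Nup210, a large glycoprotein of the pore membrane, differed by 0.13.

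Nup210l, a relative of Nup210 known from the testis, had a mean below the array median. It read 8.11, 8.19 and 8.20 in control and 8.39, 8.18 and 8.23 in knockdown arrays, and its difference of 0.10 had an interval from -0.10 to 0.29. Its 9 probe sets differed by -0.02 to 0.22.

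**Figure D2:**
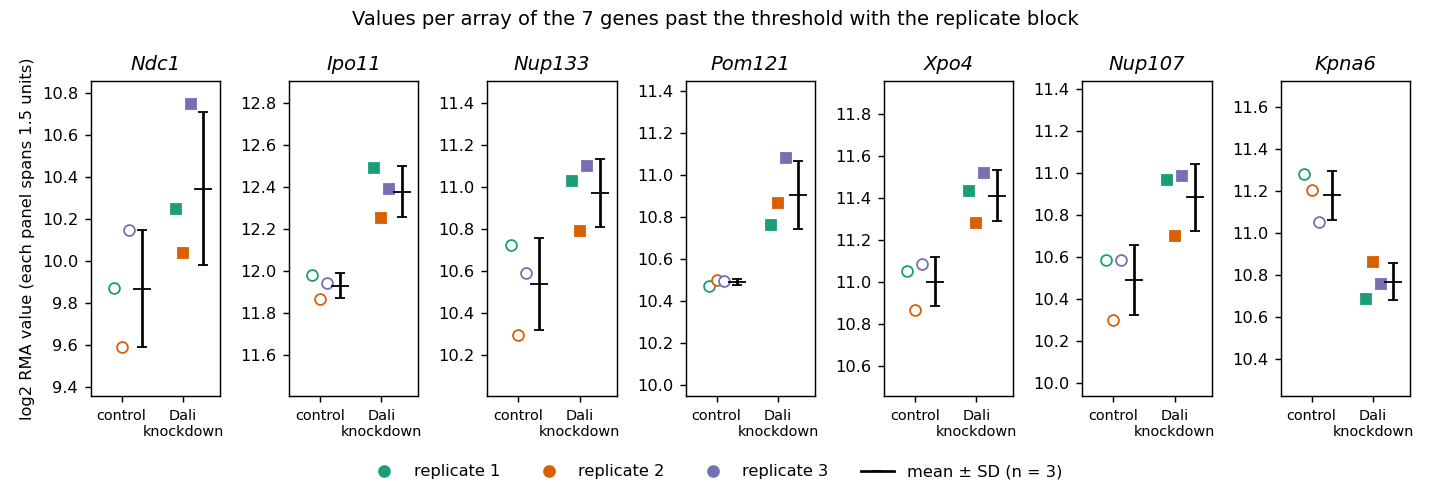
Log2 RMA value on each array of the 7 genes past the threshold with the replicate block, in control and Dali knockdown samples. Points are coloured by replicate number, bars give the mean ± SD of 3 arrays and each panel spans 1.5 log2 units. Groups overlap for Ndc1 alone, and Kpna6 is the 1 gene of the 7 with lower knockdown values.

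The nuclear basket faces the chromatin, and both measured genes were higher without overlap. Nup50, which helps release importin alpha from its cargo, read 11.96, 11.82 and 11.84 in control and 12.29, 12.15 and 12.23 in knockdown arrays. Nup153, an FG nucleoporin at which importins arrive, read 11.71, 11.56 and 11.72 in control and 11.86, 11.86 and 11.97 in knockdown arrays. In each gene the lowest knockdown array stood above the highest control array. The differences were 0.35 for Nup50 (SE 0.13, limma adjusted p = 0.268, with the block 0.0283) and 0.23 for Nup153 (SE 0.08). The adjusted p of Nup153, which the variance filter removed, was 0.368 by limma without that filter and 0.111 when the block was added. Tpr, the main basket protein, was not analysed here.

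The 3 central channel genes measured had a median difference of 0.18. Nup62, an FG nucleoporin of the channel core, read 11.85, 11.72 and 11.75 in control and 12.07, 11.98 and 12.06 in knockdown arrays. The groups were separate, and the difference was 0.26 (SE 0.13, limma adjusted p = 0.427, with the block 0.0676). Nup98 encodes both an FG nucleoporin and, through cleavage of a shared precursor, the Y complex subunit Nup96. It read 11.94, 11.88 and 11.68 in control and 12.02, 12.08 and 11.93 in knockdown arrays, overlapping through control replicate 1 (difference 0.18, interval -0.04 to 0.40). Nup54, a partner of Nup62, had values of 11.16, 11.11 and 11.05 in control and 11.29, 11.13 and 11.19 in knockdown arrays. These overlapped, and the difference was 0.10 (interval -0.09 to 0.29).

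On the cytoplasmic side, where messenger RNA is released, 4 of 6 genes had a higher mean (median 0.16). Gle1, which activates the RNA helicase of this last step, read 10.53, 10.39 and 10.53 in control and 10.70, 10.54 and 10.86 in knockdown arrays. The groups were separated by a narrow gap, and the difference was 0.21 (SE 0.10, limma adjusted p without the variance filter 0.518). Nup88 differed by 0.21 and its partner Nup214 by 0.18, both without overlap. Ranbp2, the giant filament protein that holds Rangap1 at the pore, differed by 0.14.

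The remaining pair on that side had lower means. Rae1, a messenger RNA export factor that also acts in mitosis, differed by -0.05. Aaas, which encodes ALADIN, read 11.93, 11.52 and 11.79 in control and 11.45, 11.33 and 11.80 in knockdown arrays. The highest knockdown array reached above the middle control array, and the SD was 0.21 in control and 0.25 in knockdown. The difference of -0.22 had an interval from -0.55 to 0.11 (limma adjusted p = 0.601).

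The Ran cycle genes differed over a narrow range, from 0.19 to 0.29, and each was higher in all 3 pairs. Ran, the GTPase itself, read 12.08, 11.99 and 12.13 in control and 12.18, 12.23 and 12.38 in knockdown arrays. Rcc1 read 10.48, 10.24 and 10.51 in control and 10.67, 10.54 and 10.88 in knockdown arrays. Neither gene overlapped between groups, and the gap was small in both. The difference was 0.19 for Ran (interval -0.01 to 0.40, from the fit without the variance filter). It was 0.29 for Rcc1, which the filter kept (interval -0.02 to 0.59, limma adjusted p = 0.423, with the block 0.0572).

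Rangap1 read 11.43, 11.04 and 11.06 in control and 11.55, 11.40 and 11.39 in knockdown arrays. Ranbp1, which helps Rangap1 act on Ran, read 12.94, 12.71 and 12.98 in control and 13.12, 12.94 and 13.18 in knockdown arrays. In both genes the highest control array exceeded the lowest knockdown array. The differences were 0.27 for Rangap1 (SE 0.15, limma adjusted p = 0.466, with the block 0.0749) and 0.21 for Ranbp1 (SE 0.14, 0.576, with the block 0.117).

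The carriers were less uniform than the pore. Exportins had 6 of 6 higher means (median 0.21), importins of the beta family 8 of 11 (median 0.07) and importin alpha adaptors 3 of 6 (median -0.02). The 5 members whose knockdown arrays all lay below the control arrays were the importin alpha genes Kpna1, Kpna3 and Kpna6 and the beta family genes Ipo8 and Tnpo3. As 5 of 54 members, this is near the share over all genes (7.11%) and over genes above the array median (11.4%).

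Importin alpha proteins recognise the classical nuclear localisation signal and ride through the pore with importin beta. Kpna6 read 11.28, 11.20 and 11.06 in control and 10.69, 10.86 and 10.76 in knockdown arrays. All knockdown arrays were lower, and in contrast to most members replicate 2 was the highest of the knockdown group. The difference was -0.41 (SE 0.14, 1.33-fold lower, limma adjusted p = 0.192, with the block 0.0278).

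Kpna1, its close relative, differed by -0.25 (SE 0.13, limma adjusted p = 0.457, with the block 0.0731), and Kpna3 by -0.15 (interval -0.33 to 0.03). Kpna2, the adaptor abundant in dividing and pluripotent cells, differed by 0.10 in the opposite direction, with an interval from -0.07 to 0.28. On the probe set used, the groups of Kpna2 were just apart. Its other 2 probe sets gave 0.11 each, with overlapping groups. Kpna4 differed by 0.13. Kpna7, known from the egg and early embryo, had a mean below the array median and read 6.66, 6.51 and 6.91 in control and 6.99, 6.74 and 6.95 in knockdown arrays, which overlapped (difference 0.20, interval -0.10 to 0.51). The adaptors whose arrays separated downwards were Kpna1, Kpna3 and Kpna6, and Kpna2 separated upwards on 1 of its 3 probe sets. Over all genes 7.11% separated downwards and 8.47% upwards, and over genes above the array median 11.4% and 12.2%.

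Among importins of the beta family, Ipo11, which imports ubiquitin-conjugating enzymes, stood apart. It read 11.98, 11.87 and 11.94 in control and 12.49, 12.25 and 12.39 in knockdown arrays. No arrays overlapped, and the gap between groups exceeded the SD of either (0.06 in control and 0.12 in knockdown). The difference was 0.45 (SE 0.13, 1.36-fold, limma adjusted p = 0.149, with the block 0.0152). It was called by limma without the block when a filter on level replaced the filter on variance (adjusted p = 0.0888) or when knockdown replicate 2 was left out (difference 0.51, adjusted p = 0.0752).

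Kpnb1, the importin beta that carries importin alpha with its cargo, read 12.26, 12.02 and 12.21 in control and 12.31, 12.26 and 12.35 in knockdown arrays. Knockdown replicate 2 lay within the control range, and the difference was 0.14 (interval -0.06 to 0.35). Ipo5, a carrier of ribosomal proteins and histones, differed by 0.32 without overlap (limma adjusted p = 0.353, with the block 0.0383), and Ipo9, a histone carrier, by 0.14.

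Tnpo1, Ipo13, Ipo7, Tnpo2 and Ipo4 differed by 0.08, 0.07, 0.01, 0.01 and -0.00, all with overlapping groups. Tnpo3, the carrier of serine- and arginine-rich splicing factors, differed by -0.13. Ipo8 read 10.47, 10.36 and 10.41 in control and 10.22, 10.24 and 10.31 in knockdown arrays. Its groups were separate by a small gap, and the difference was -0.15 (interval -0.33 to 0.02, limma adjusted p without the variance filter 0.55).

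Exportins were the most even of the carriers. Xpo4, an exportin for the translation factor eIF5A that also imports some transcription factors, read 11.05, 10.87 and 11.09 in control and 11.43, 11.28 and 11.52 in knockdown arrays. The groups did not overlap and the 3 pairs gave like differences. The mean difference was 0.41 (SE 0.14, 1.33-fold, limma adjusted p = 0.2, with the block 0.0178).

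Xpo1, the exportin for leucine-rich export signals, read 12.17, 12.00 and 12.15 in control and 12.29, 12.16 and 12.34 in knockdown arrays. Cse1l, which returns importin alpha to the cytoplasm, read 12.67, 12.46 and 12.62 in control and 12.92, 12.61 and 12.88 in knockdown arrays. In both, knockdown replicate 2 lay within the control range while the other knockdown arrays lay above it. The differences were 0.16 for Xpo1 (interval -0.05 to 0.36) and 0.22 for Cse1l (interval -0.08 to 0.52, limma adjusted p = 0.551, with the block 0.104).

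Xpo7 differed by 0.21 and the transfer RNA exportin Xpot by 0.20. Xpo6, the exportin for actin with profilin, read 11.80, 11.65 and 11.72 in control and 11.78, 11.92 and 11.89 in knockdown arrays. Its arrays numbered 1 went the other way from the rest of the group, and the difference of 0.14 was the smallest of the exportins (interval -0.05 to 0.33).

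**Figure D3:**
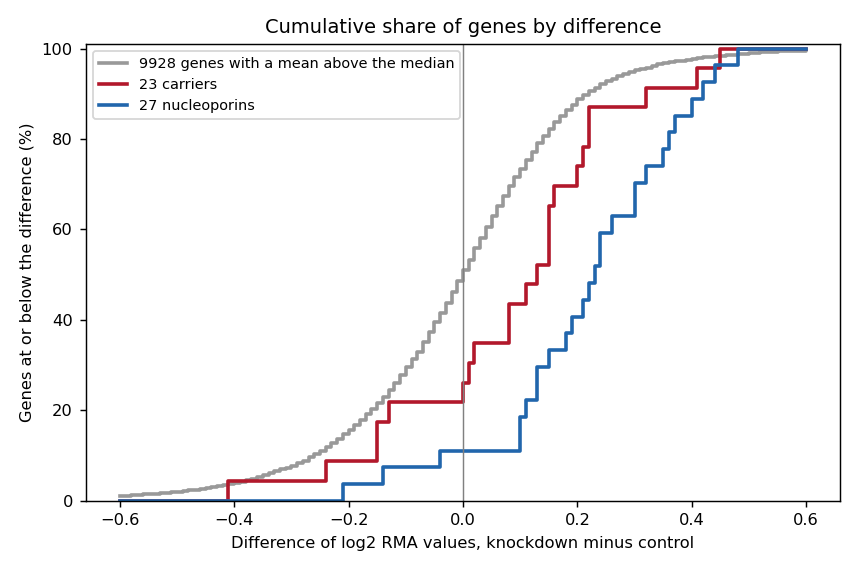
Cumulative share of genes (vertical axis, %) at or below each difference of log2 RMA values (horizontal axis, knockdown minus control) for 27 nucleoporins, 23 carriers and the 9928 genes with a mean above the array median. The nucleoporin curve (median 0.23) lies to the right of the carrier curve (median 0.13) over most of its length. Below 0 are 3 nucleoporins and 6 carriers, beside 5061 of the 9928 genes.

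Comparing the classes, the nucleoporin median exceeded the carrier median by 0.10, with a pooled SD between arrays of one group of 0.06. The excess was 0.16 without knockdown replicate 2 and between 0.08 and 0.12 without any other single array. Of 27 nucleoporins 14 had all knockdown arrays above all control arrays and 0 had them all below, whereas of 23 carriers 6 had them above and 5 below. Among genes above the array median 12.2% had them above and 11.4% below, so the counts below rest on few genes. The classes overlapped widely, from -0.22 to 0.47 for nucleoporins and from -0.41 to 0.45 for carriers. Since genes of a class share the same 6 arrays, this comparison is a description without a test.

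**Figure D4:**
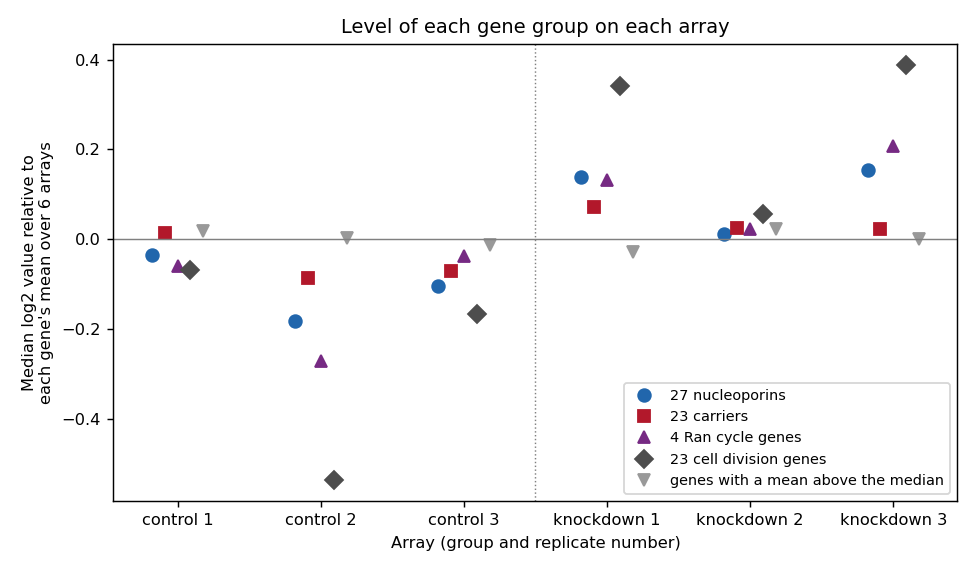
Median log2 value of each gene group on each of the 6 arrays, relative to each gene's mean over the arrays. Nucleoporins (-0.18 to -0.04 in control and 0.01 to 0.16 in knockdown arrays) follow the cell division genes (-0.54 to -0.07 and 0.06 to 0.39) at a smaller amplitude, with replicate 2 the lowest array of each group.

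The array-by-array medians show that the pore genes were accompanied by a larger difference in cell division genes. On the 3 control arrays the nucleoporin median relative to each gene's own mean was -0.04, -0.18 and -0.10, and on the knockdown arrays 0.14, 0.01 and 0.16. For a list of 24 replication and mitosis genes, of which 23 were measured, the same values were -0.07, -0.54 and -0.17 in control and 0.34, 0.06 and 0.39 in knockdown arrays. All 23 had a higher mean in knockdown (median difference 0.50). Limma called 6 of them higher, or 15 with the replicate block, beside 0.367% and 2.77% of tested probe sets. The list was chosen with earlier results of these data known. Carriers spanned less, from -0.09 to 0.01 in control and from 0.02 to 0.07 in knockdown arrays. The part of the cell division genes in the differences of the pore genes was not tested.

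Genes that act next to the pore had smaller median differences than the nucleoporins, a difference that was not tested. For their calls with the block, the share of all tested probe sets called higher was 2.77%. Of 23 messenger RNA export genes 21 were measured, 17 had a higher mean (median 0.09), and limma called 0. With the block 2 were called higher, namely Nxt2, a cofactor of the export receptor (0.50), and Ncbp2, the small subunit of the nuclear cap-binding complex (0.40), while the export receptor Nxf1 differed by 0.00. Of 20 genes of the nuclear envelope and lamina 14 had a higher mean (median 0.05) and 0 were called by limma. With the block 2 were called higher, the inner membrane protein gene Nemp1 (0.51) and the lamin gene Lmnb1 (0.48), whereas Lmna differed by -0.12.

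Among 17 further Ran, adaptor and pore assembly genes, 14 were measured, 11 had a higher mean (median 0.14), limma called 0 and the block called Rcbtb1 higher (0.42). Ahctf1, which encodes the Elys protein that seeds pores on chromatin, differed by 0.15. Nupl1, the older symbol of the channel nucleoporin Nup58, differed by 0.11, and Nupl2, a cytoplasmic-side nucleoporin, by -0.00. These 3 pore genes lay outside the symbols by which members were chosen.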

How the data were processed

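RNA from 3 control and 3 Dali knockdown N2A samples was hybridised to Mouse Gene 1.0 ST arrays. The authors normalised the arrays by RMA and deposited log2 values, and the submitters' processing notes also name limma. Versions, and which arrays were normalised together, are not given in the sources used here. Of 35556 rows, 21789 had 1 gene symbol, 1621 had several and 12146 were not listed. The latter 2 kinds named no gene. The 11705 of 23410 annotated probe sets with an interquartile range above the median (0.147) were kept, since the study's methods name a variance filter, and the groups were compared by two-sided moderated tests with 95% intervals (limma 3.58.1 in R 4.3.3, functions lmFit and eBayes). Calls needed a Benjamini-Hochberg adjusted p under 0.1 and 1.3-fold. Values of removed genes came from the fit without the filter. Filtering on variance before a moderated test can make its p-values too small. Among members the adjusted p moved either way. It was 0.427 with the filter and 0.285 without it for Nup62, and 0.273 and 0.438 for Ndc1. Limma called 133 probe sets with the filter and 41 without it. The fit without the block was also run on simulated independent values with no replicate effect. That run does not measure the error of the calls on these arrays.

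Replicate numbers come from the sample titles. Deviations of same-numbered arrays from their group means correlated at 0.141, 0.646 and 0.655 over annotated probe sets, all above the bound of 0.1 for treating numbers as pairs, although control replicate 1 correlated more (0.202) with knockdown replicate 2. With 6 arrays in all, precision is limited by their number.

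Members, lists and tests were chosen with earlier results of these data known. Named with all array values were Ran, Rcc1, Rangap1, Ranbp1, Kpnb1, Xpo1, Cse1l, Nup98, Nup62, members called, up to 10 called only with the replicate block, and the largest and smallest difference of each role. Nup155, Nup50 and Nup153 fall under the last. Alternatives were the block, median centring, averaging probe sets, other filters and thresholds, and leaving out each array. Promoters were taken from a RefSeq table of GRCm38.p6.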

Additional observations from a re-analysis of the deposited data

How the results depend on the processing

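The number of members called was the value that depended most on the fit. It was 0 of 54 by limma and 7 with the replicate block (6 higher, 1 lower), 1 when a filter on level replaced the filter on variance (Ipo11), and 0 to 1 when single arrays were left out, Ipo11 being called without knockdown replicate 2. With the replicate block and no variance filter it was 7, and with the replicate block and no fold threshold 20, both chosen after seeing the data. The replicate block changed no other call among the 28 members named by rule. Over these 28 and 13 alternatives, 348 of 364 differences kept their side of the threshold, 16 passed it and 0 changed sign. Over all probe sets the block called 896 against 133. The nucleoporin median minus the carrier median ran from 0.0754 to 0.161 when single arrays were left out, the latter without knockdown replicate 2. Median centring gave 0.26 for nucleoporins, 0.16 for carriers and 0.27 for Ran cycle genes. With 3 arrays per group and differences mostly under 1.3-fold, the arrays could not separate most members from 0.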
